A study of Homo sapiens with 6 samples.

Results

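Losartan was added to alcohol in human cardiomyocytes, and gene expression with both agents was compared with expression under alcohol alone. The comparison rests on 4 of the 6 RNA-seq libraries of the series, chosen by the treatment in their labels: 2 libraries came from cells under 100 mM alcohol for 24 h (alcohol), and 2 from cells under the same alcohol to which losartan was added at 1 μM (co-treated). The other 2 libraries, of untreated cells (control), gave the reference level and shared in the estimate of the spread. All cells were hiPSC-CMs by their labels, beating heart muscle cells grown from stem cells, and the line named is H9, an embryonic stem cell line, so every library stems from 1 line. The labels and the study's methods describe a co-treatment, and the study's text also uses the word pretreatment. No library with losartan alone was analysed here, so the values describe losartan on top of alcohol and not losartan by itself.

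Losartan blocks the angiotensin II type 1 receptor, which the gene AGTR1 encodes. In the heart, angiotensin II acting on this receptor drives contraction, growth of the muscle cell and formation of matrix, and it activates NADPH oxidases, enzymes that make superoxide. Alcohol is oxidised to acetaldehyde and is a source of oxidative stress in cardiac cells. The comparison asks which transcripts differed when the receptor blocker was present during the exposure.

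Libraries of the same treatment differed from each other about as much as libraries of different treatments. Over the 14926 genes tested, the median absolute difference in log2 CPM (counts per total of the library, on a common scale) was 0.194 between the alcohol libraries and 0.215 between the co-treated libraries. Between an alcohol and a co-treated library it ran from 0.179 to 0.226. The expected counts, which are estimates of the reads of each gene, summed to between 4898287 and 5051448 per library, so a gene at 0 could still hold up to 3 counts, 0.594 to 0.612 CPM. Cardiomyocyte markers dominated every library, with a summed FPKM (counts scaled to gene length and library size) of 30190 to 41050 over 16 genes in the 4 libraries compared. Smooth muscle markers summed to 1919 and 1086 FPKM with alcohol and 1394 and 1431 co-treated. Fibroblast markers summed to 472.8 to 523.1. The markers of pluripotent cells reached 23.3 to 31.8 FPKM, and those of blood and macrophages 3.24 to 4.58.

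The shift across all genes was narrow and centred on 0. The median log2 fold change of co-treated against alcohol was 0.0023, and 50.3% of the genes lay above 0. From the 5th to the 95th percentile, log2 fold changes ran from -0.47 to 0.51, and 61.4% of the genes lay within 0.2 of 0. The median SE of a log2 fold change was 0.19. A fold change beyond 2 in either direction was fitted for 244 genes, 143 higher and 101 lower. Of the 11544 genes with a mean log2 CPM of at least 3, only 20 went that far.

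Two-sided edgeR quasi-likelihood tests with Benjamini-Hochberg adjustment called 2 genes, 1 higher and 1 lower, which is 0.0134% of the genes tested. At an unadjusted p under 0.05 there were 829 genes (5.55%), where 5% would be expected with no difference in any gene. Of these, 424 (2.84% of all) were higher and 405 (2.71%) lower. Both co-treated libraries lay above both alcohol libraries for 17.4% of the genes, and both lay below for 16.2%. In the same fit, alcohol against control called 10 genes (0.067%) and co-treated against control 54 (0.362%), and all of these comparisons share libraries. For 1 gene, exact permutation of 2 libraries against 2 reaches no p below 0.333. The labels do not say that the libraries came from separate cultures, so the p-values measure the spread between libraries, which may be technical.

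**Figure D1:**
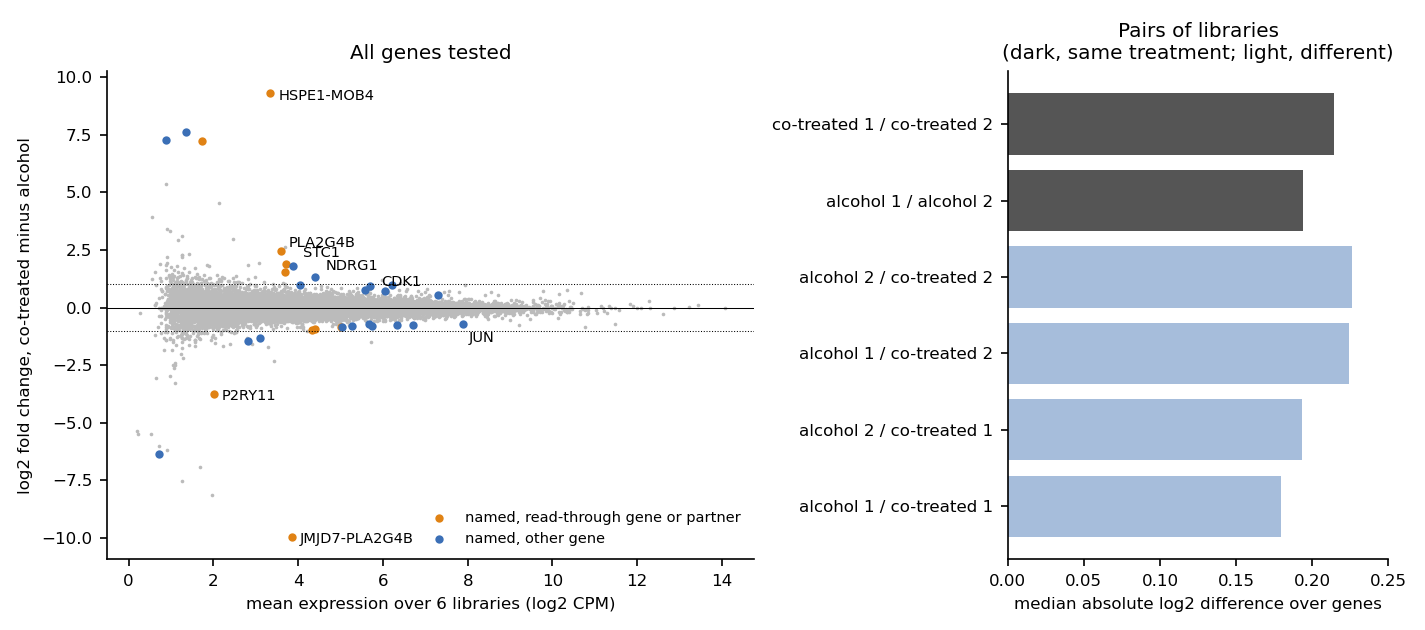
Left, log2 fold change of co-treated against alcohol for each of the 14926 genes tested (vertical axis) against its mean log2 CPM over 6 libraries, with the 30 named genes in colour and dotted lines at a fold of 2. Right, the median absolute log2 difference over these genes for each pair of the 4 libraries: pairs of different treatment (light, 0.179 to 0.226) were as far apart as pairs of the same treatment (dark, 0.194 and 0.215).

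Both called genes are read-through genes, annotated transcripts that run from 1 gene into its neighbour and share exons with both. JMJD7-PLA2G4B, which joins a lysyl hydroxylase gene and a cytosolic phospholipase A2 gene, fell. Its FPKM was 7.35 and 7.31 in the alcohol libraries and 0 in both co-treated libraries, against 4.77 and 5.16 in control. The groups did not overlap, and counted against a floor of 3 counts per library, averaged over the group, the level was at least 41.2-fold lower (adjusted p = 1.2e-05). HSPE1-MOB4, which joins a mitochondrial chaperonin gene and a kinase-binding gene, rose. It stood at 0 FPKM in both alcohol libraries and at 1.85 and 5.47 in the co-treated ones, with 3.22 and 2.86 in control. That is at least 26.2-fold higher than the floor (adjusted p = 0.016), and co-treated replicate 2 carried most of it. It was no longer called by edgeR without that library or without the filter on low counts, nor by limma on log2(FPKM + 1).

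The partner PLA2G4B stood on the other side. It held 8.55 and 32.2 expected counts in the alcohol libraries and 123 and 103 in the co-treated ones, a log2 fold change of 2.46 ± 0.37 (SE, n = 2 and 2, adjusted p = 0.0824), the smallest adjusted p after the called genes. JMJD7 held 81.3 and 74.1 counts with alcohol and 86 and 73 co-treated, which overlapped. Summed over the 3 genes the locus had 216 and 228 counts in the alcohol libraries and 209 and 176 in the co-treated ones, a log2 fold change of -0.21 ± 0.15. For HSPE1-MOB4 with HSPE1 and MOB4 the sums were 970 and 850 counts with alcohol and 976 and 1135 co-treated, which do not overlap but differ by only 0.21 ± 0.13 on the log2 scale. At JMJD7-PLA2G4B the counts of the locus were divided differently among its gene names, while the locus total differed little. At HSPE1-MOB4 no partner was lower to match the rise. HSPE1 held 431 and 344 counts with alcohol and 410 and 458 co-treated (log2 fold change 0.16 ± 0.14). MOB4 held 538.8 and 506 counts with alcohol and 526.4 and 558.5 co-treated (0.05 ± 0.12). How expected counts are split among overlapping gene names was not tested.

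When the counts of each such gene were added to those of its partners before the fit, no gene or family passed among 14765, the smallest edgeR adjusted p was 0.577, and 841 had an unadjusted p under 0.05. DESeq2, limma and the other alternatives were not run on the summed counts. Read-through genes and their partners make up 1.89% of the genes tested. Among the 15 genes named in each direction, they were 5 of the rises and 5 of the falls.

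**Figure D2:**
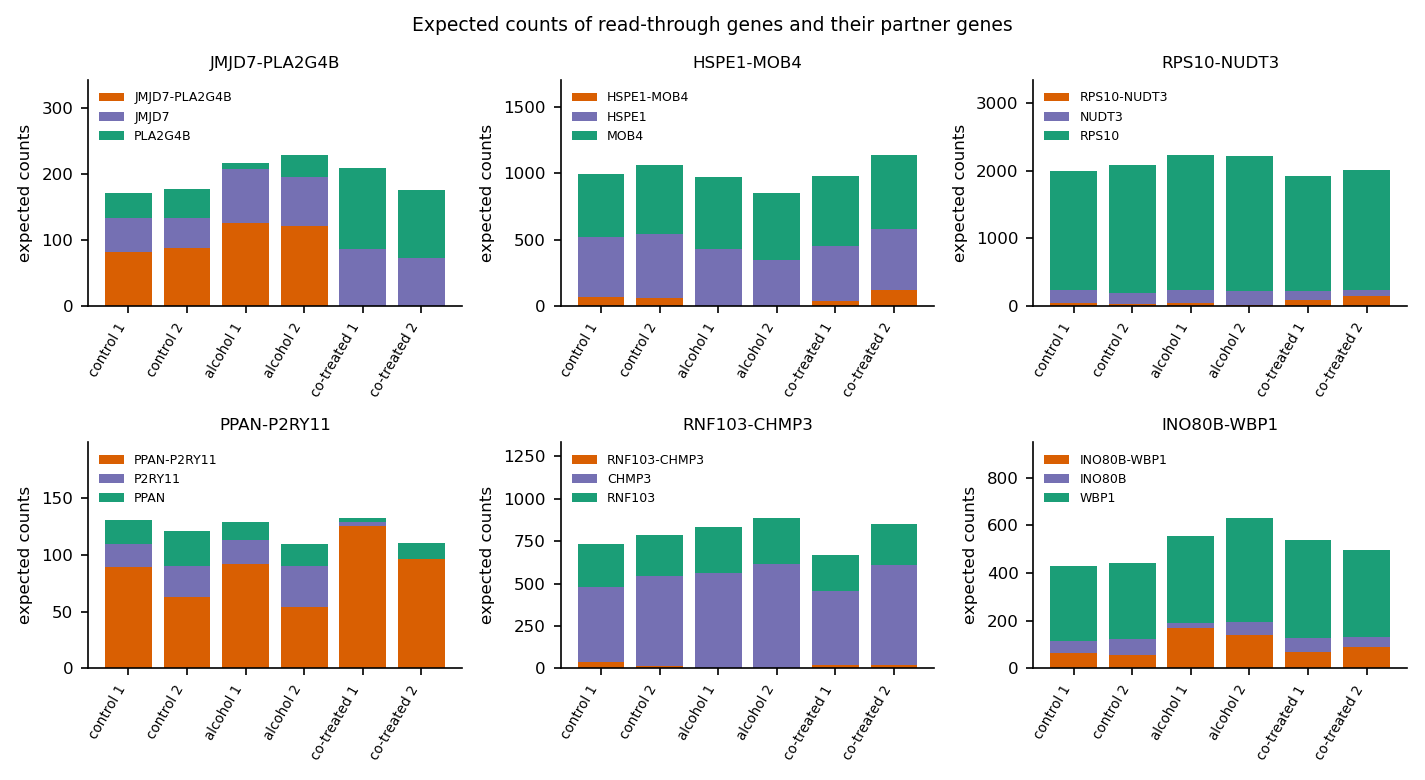
Expected counts (vertical axis, linear from 0) of 6 read-through genes and their partner genes in each of the 6 libraries, stacked so that the bar height is the total of the locus. JMJD7-PLA2G4B fills 126 and 122 of the counts in the alcohol libraries and 0 in the co-treated ones, where PLA2G4B holds 123 and 103.

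At other loci of this kind single names also differed more than the locus. RPS10-NUDT3, a join of a ribosomal protein gene and a diphosphoinositol phosphatase gene, had 3.29 and 1.67 FPKM with alcohol and 7.52 and 11.1 co-treated (log2 fold change 1.89 ± 0.33, adjusted p = 0.23). Its partner NUDT3 had 15.96 and 16.4 FPKM with alcohol and 10.2 and 7.90 co-treated (-0.84 ± 0.17, adjusted p = 0.453), and the locus as a whole differed by -0.18 ± 0.11. P2RY11, a purinergic receptor gene, had 2.13 and 3.72 FPKM with alcohol and 0.39 and 0 co-treated, and the sum with PPAN and PPAN-P2RY11 differed by 0.03 ± 0.19. RNF103-CHMP3 was at 0 in both alcohol libraries and at 1.06 and 1.13 FPKM co-treated, at least 6.16-fold higher against the floor. RPL17-C18orf32 (log2 fold change 1.56 ± 0.36) was higher, and INO80B-WBP1 (-0.95 ± 0.20) and IQCJ-SCHIP1 (-0.91 ± 0.20) were lower. Each was without overlap, as the choice of named genes required. Their loci differed by -0.03 ± 0.12, -0.20 ± 0.12 and -0.39 ± 0.14 when summed.

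Some of the named genes have near-identical copies. PLGLB2 was at 0 in both alcohol libraries and at 25.5 and 13.0 counts in the co-treated ones, and its copy PLGLB1 went from 41.5 and 48.5 counts to 17.5 and 15.97. Together the pair held 41.5 and 48.5 counts with alcohol and 43.0 and 29.0 co-treated, which overlap. FAM72C was at 0 with alcohol and at 28.9 and 20.4 counts co-treated, while the 4 FAM72 copies together held 62.0 and 63.0 counts with alcohol and 90 and 86 co-treated, which do not overlap. GOLGA8EP, a pseudogene of a golgin family with many copies, had 13.4 and 6.64 counts with alcohol and 0 co-treated. The levels of these genes are uncertain, since their reads can be assigned to another copy.

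The genes of losartan's own pathway were called in neither direction. AGTR1, its target, was not tested for lack of reads: it held 1 and 0 counts in the alcohol libraries, 0 and 2 in the co-treated ones and 0 in both control libraries, so no difference in the receptor transcript was detectable at this depth. AGT, the precursor of angiotensin, was well expressed, at 23.0 and 25.2 FPKM with alcohol and 25.4 and 25.3 co-treated (log2 fold change 0.07 ± 0.13). ACE, which makes angiotensin II, was near the limit at 0.38 and 0.49 against 0.62 and 0.28 FPKM, which overlapped. Of 11 renin-angiotensin genes tested, 7 were higher and 4 lower, none had an unadjusted p under 0.05, and their median log2 fold change was 0.06. ENPEP, an aminopeptidase that cleaves angiotensin II, came nearest with 2.08 and 2.67 against 3.12 and 3.47 FPKM (0.47 ± 0.24, edgeR adjusted p = 0.90).

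Genes that angiotensin II induces or that mark fibrosis were lower in 13 of 16 cases, with a median of -0.20. Of these, 3 were lower without overlap (background 16.2%) and 2 had an unadjusted p under 0.05 (background 2.71%). The sign turned with the alcohol library: the median was -0.37 with alcohol replicate 2 left out and 0.23 with alcohol replicate 1 left out, when 11 of 16 were higher. Smooth muscle markers, given above, also differed between the alcohol libraries, and their part was not tested. CYR61, a secreted matricellular protein, had 32.5 and 24.4 FPKM with alcohol and 14.9 and 17.9 co-treated, against 25.6 and 22.5 in control. Both co-treated values were the lowest of the 6 libraries (-0.81 ± 0.18, adjusted p = 0.461). TGFB2, a transforming growth factor, had 26.2 and 32.1 FPKM with alcohol and 21.9 and 23.6 co-treated (-0.36 ± 0.12, adjusted p = 0.836). FN1, fibronectin, had 144 and 147 against 122 and 134 FPKM (-0.19 ± 0.13).

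The NADPH oxidase genes were low or level. NOX4, the main cardiac catalytic subunit, had 0.70 and 0.33 FPKM with alcohol and 0.67 and 0.39 co-treated, which overlapped completely. CYBB, which encodes NOX2, had 0.45 and 0.37 FPKM with alcohol and 0.84 and 0.86 co-treated, so it was higher and not lower with losartan, from 10 and 8 counts to 18 and 19 (log2 fold change 1.02 ± 0.49, adjusted p = 0.899). CYBA, the shared p22phox subunit, had 11.6 and 11.9 against 11.9 and 9.5 FPKM. None of the 9 genes tested had an unadjusted p under 0.05. The 24 antioxidant genes tested had none either, with 14 higher and 10 lower and a median of 0.01. GPX4, a peroxidase of membrane lipids, came first at 112 and 122 FPKM with alcohol and 109 and 86.4 co-treated (adjusted p = 0.90).

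Apoptosis genes were spread evenly around 0. Among 29 proapoptotic genes 15 were higher and 14 lower, with a median log2 fold change of 0.03, and among 8 antiapoptotic genes 4 were higher and 4 lower. BAX, which opens the outer mitochondrial membrane, had 36.2 and 31.1 FPKM with alcohol and 31.4 and 27.0 co-treated, and BCL2, its inhibitor, 0.36 and 1.03 against 0.40 and 0.50. Both overlapped between the treatments. FADD, the adaptor of death receptors, was lower without overlap, at 9.11 and 9.49 against 7.63 and 6.24 FPKM (-0.43 ± 0.22, adjusted p = 0.90). BNIP3, the only proapoptotic gene with an unadjusted p under 0.05, was higher with losartan and is also a gene of the hypoxia response. Of 20 p53 target genes 1, AEN, had an unadjusted p under 0.05.

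Genes of the hypoxia response and of sugar breakdown stood mostly higher in co-treated cells. The transcription factor HIF-1 binds hypoxia response elements and turns on glycolytic enzymes and other genes when oxygen is scarce. Outside glycolysis, 26 of 28 HIF-1 target genes tested were higher and 2 lower, 15 of them with both co-treated libraries above both alcohol libraries (background 17.4%) and 13 at an unadjusted p under 0.05 (background 2.84%). Their median log2 fold change was 0.52 against 0.0023 over all genes, and no gene was called. Of 22 glycolysis genes 20 were higher, 11 without overlap and 10 at an unadjusted p under 0.05, with a median of 0.32 and none called.

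NDRG1, a stress-responsive gene induced by hypoxia, had 4.99 and 3.25 FPKM with alcohol and 11.4 and 9.96 co-treated, against 6.25 and 4.12 in control. Both co-treated values exceeded the other 4 (log2 fold change 1.34 ± 0.25, adjusted p = 0.314). INSIG2, which holds sterol regulators in the endoplasmic reticulum, had 15.6 and 13.8 FPKM with alcohol and 26.9 and 22.9 co-treated, again above both controls at 16.5 and 14.4 (0.75 ± 0.15, adjusted p = 0.444). ERO1A, an oxidase that forms disulfide bonds, had 10.4 and 6.68 FPKM with alcohol and 18.6 and 15.4 co-treated (0.98 ± 0.22, adjusted p = 0.461). The control libraries stood at 16.9 and 11.5, 1 between the co-treated values and 1 between the treatments. P4HA2 and P4HA1, the catalytic subunits of the collagen prolyl hydroxylase, were higher by 0.90 ± 0.23 and 0.75 ± 0.20, and FAM162A, a mitochondrial protein, by 0.82 ± 0.21. STC1, a secreted glycoprotein, had 2.32 and 0.57 FPKM with alcohol and 5.83 and 4.62 co-treated (1.82 ± 0.42, adjusted p = 0.471).

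The size of the list medians rested on alcohol replicate 2, whose mean over the HIF-1 targets, 5.17 log2 CPM, was the lowest of the 6 libraries (5.71 to 6.25 in the others). Some named genes also differed from alcohol replicate 1. Against it, co-treated replicates 1 and 2 were higher by 1.10 and 0.94 for NDRG1 and by 0.72 and 0.52 for INSIG2 (log2). BNIP3, a mitophagy receptor, had 130 FPKM in alcohol replicate 1 and 44.9 in replicate 2, against 194 and 158 in the co-treated libraries and 211 and 146 in control. PGK1, a glycolytic kinase, had 308 and 157 FPKM with alcohol and 398 and 372 co-treated. Against alcohol replicate 1 the median difference of the HIF-1 targets was 0.27 in co-treated replicate 1 and 0.08 in replicate 2, and against alcohol replicate 2 it was 1.09 and 0.76. Without alcohol replicate 2, 20 of 28 HIF-1 targets were higher, 6 at an unadjusted p under 0.05, with a median of 0.18, and the glycolysis median was 0.09 with 0 such genes. Without alcohol replicate 1 the medians were 0.92 for the HIF-1 targets and 0.72 for glycolysis. In that fit the lone alcohol library is assumed to vary like the others. The part of the well or its RNA in the low values of alcohol replicate 2 was not tested.

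Promoters of 3 of these genes are shown for the core of the hypoxia response element, ACGTG on either strand, in capitals. Each is the 250 bases before the first start listed by RefSeq (GRCh38.p14), 5′ to 3′ on the strand of the gene. BNIP3 lies on chr10:131981924-131982173 (minus strand), PGK1 on chrX:78103998-78104247 (plus) and ERO1A on chr14:52695559-52695808 (minus).
BNIP3: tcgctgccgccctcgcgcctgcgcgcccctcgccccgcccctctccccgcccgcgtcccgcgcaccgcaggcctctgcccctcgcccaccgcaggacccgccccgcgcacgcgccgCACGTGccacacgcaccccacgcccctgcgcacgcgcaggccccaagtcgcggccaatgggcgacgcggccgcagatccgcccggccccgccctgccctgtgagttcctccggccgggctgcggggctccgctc
PGK1: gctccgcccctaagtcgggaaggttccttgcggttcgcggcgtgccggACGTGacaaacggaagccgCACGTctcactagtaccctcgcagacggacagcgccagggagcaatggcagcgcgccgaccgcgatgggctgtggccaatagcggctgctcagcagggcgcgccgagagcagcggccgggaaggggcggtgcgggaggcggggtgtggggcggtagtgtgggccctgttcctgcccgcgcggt
ERO1A: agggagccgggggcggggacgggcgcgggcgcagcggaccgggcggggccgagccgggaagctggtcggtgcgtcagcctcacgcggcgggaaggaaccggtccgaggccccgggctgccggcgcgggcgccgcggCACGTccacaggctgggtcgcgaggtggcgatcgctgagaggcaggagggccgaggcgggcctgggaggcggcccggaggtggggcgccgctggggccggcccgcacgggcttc
With overlapping matches counted as 1, BNIP3 held 1, PGK1 held 2 and ERO1A held 1. A window was available for 11766 of the 14926 genes tested, and 22.8% of these held the core. Among the HIF-1 targets outside glycolysis it stood in 14 of 23 windows (60.9%) and among glycolysis genes in 8 of 21 (38.1%). The glycolysis share was not particular to that list. Among lists described below, the core stood in 6 of 15 immediate early windows (40.0%) and 8 of 24 mitosis windows (33.3%). It stood in 6 of 25 DNA replication windows (24.0%) and in 0 of 7 natriuretic and stretch-induced ones. A match describes the letters and not the binding of a factor.

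Of 11 fatty acid synthesis genes 10 were higher, 5 without overlap (background 17.4%) and 4 at an unadjusted p under 0.05 (background 2.84%), with a median of 0.17. SCD, the desaturase that makes oleic acid, had 54.0 and 35.0 FPKM with alcohol and 73.0 and 71.7 co-treated, against 81.4 and 88.8 in control. The co-treated libraries thus lay between the other treatments (0.68 ± 0.18, adjusted p = 0.587), for a gene picked by its difference from alcohol. ACACA, the carboxylase that commits acetyl-CoA to fatty acids, had 9.81 and 9.67 against 13.0 and 13.1 FPKM (0.39 ± 0.13, adjusted p = 0.836), and ACSL3, which activates fatty acids, 31.6 and 28.2 against 40.7 and 47.4 (0.55 ± 0.13, adjusted p = 0.546). Without alcohol replicate 2, 7 of 11 fatty acid synthesis genes were higher, with a median of 0.07. Of 24 cholesterol synthesis genes 19 were higher, 1 at an unadjusted p under 0.05, with a median of 0.14, and 13 were higher without alcohol replicate 2 (median 0.02). BCAT1, which transaminates branched-chain amino acids, had 5.78 and 4.52 FPKM with alcohol and 8.96 and 8.13 co-treated (0.71 ± 0.15, adjusted p = 0.461).

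**Figure D3:**
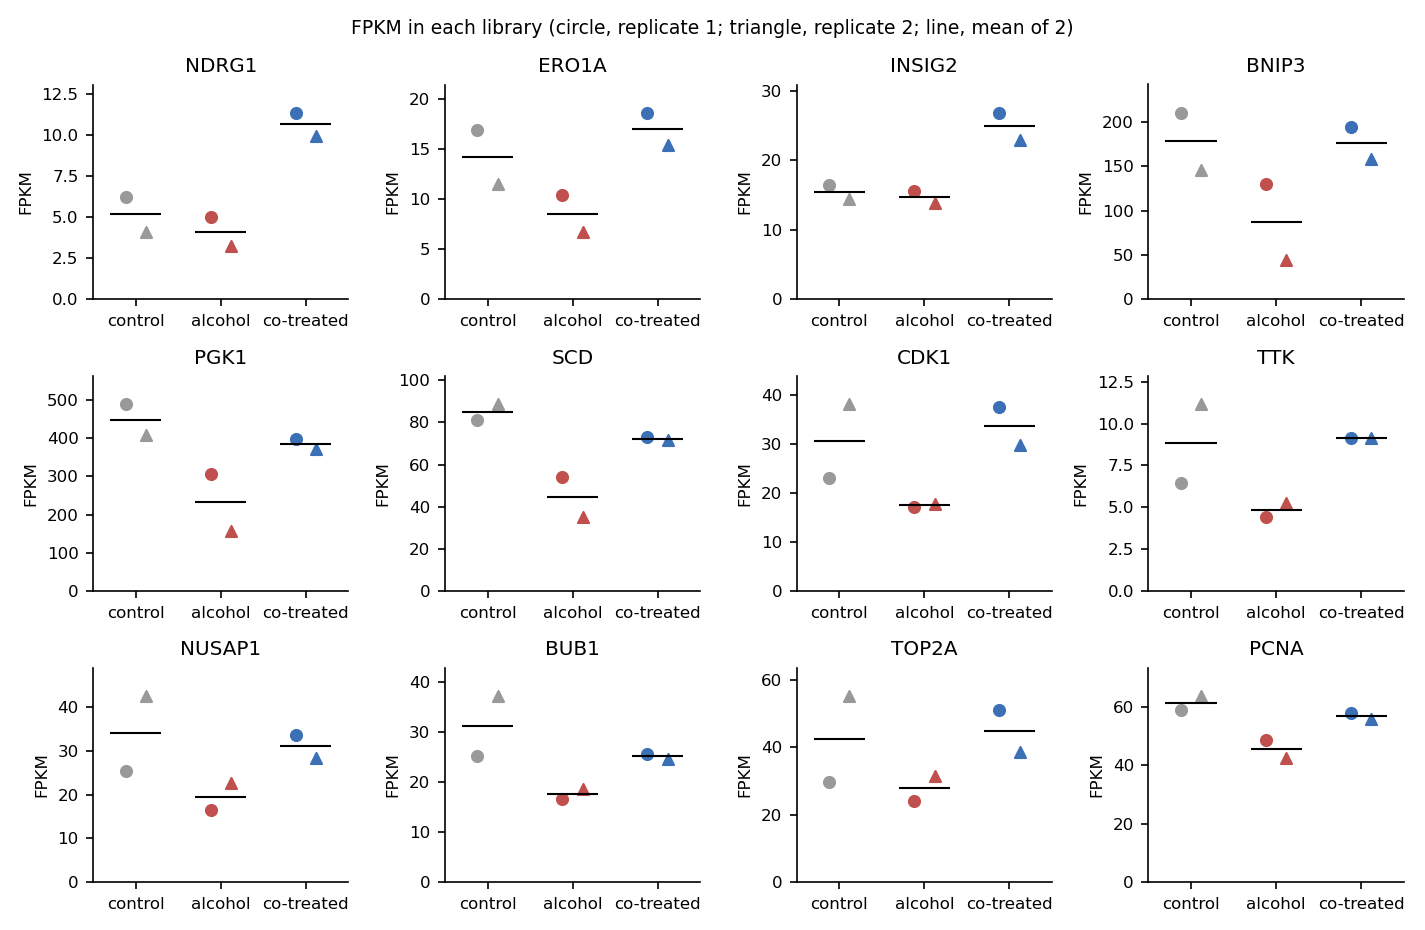
FPKM (vertical axes, linear from 0) of 12 genes that stood higher in co-treated cells, in each library of the 3 treatments, with the mean of 2 as a line. For all 12 genes both co-treated libraries lie above both alcohol libraries, while the control libraries lie above, between or below. Most of these genes were picked for lack of overlap or for a small p, so the separation follows from the choice.

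All 30 mitosis genes tested were higher in co-treated cells, 23 with both libraries above both alcohol libraries (background 17.4%) and 16 at an unadjusted p under 0.05 (background 2.84%), with a median log2 fold change of 0.51 and none called. Such genes can move together from library to library, so 30 genes are not 30 independent observations. In bulk RNA, more dividing cells and more such transcript per cell cannot be told apart. CDK1, the kinase that starts mitosis, had 17.2 and 17.8 FPKM with alcohol, 37.5 and 29.8 co-treated and 23.0 and 38.2 in control. The alcohol libraries, against which the gene was picked, were the lowest of the 6 (0.93 ± 0.20, adjusted p = 0.461). TTK, a spindle checkpoint kinase, had 4.39 and 5.27 against 9.12 and 9.15 FPKM (0.91 ± 0.24, adjusted p = 0.587). NUSAP1, a spindle protein, had 16.4 and 22.5 against 33.7 and 28.4, and TOP2A, which untangles chromosomes, 24.2 and 31.5 against 50.9 and 38.6. BUB1, another checkpoint kinase, had 16.7 and 18.7 FPKM with alcohol and 25.7 and 24.7 co-treated.

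All 4 pairs of libraries gave a positive median for mitosis, from 0.16 for co-treated replicate 2 against alcohol replicate 2 to 0.84 for co-treated replicate 1 against alcohol replicate 1. Without co-treated replicate 1, 28 of 30 were higher but only 3 at an unadjusted p under 0.05 (median 0.31), and without alcohol replicate 1, 25 were higher and 5 at that p (median 0.36). The control libraries themselves lay apart, at a mean of 5.50 and 6.24 log2 CPM over the list, next to 5.08 and 5.39 with alcohol and 5.84 and 5.57 co-treated. Markers of pluripotent cells, which divide, summed to 26.0 and 23.4 FPKM with alcohol and 31.8 and 23.3 co-treated, and their part was not tested. DNA replication genes were higher in 27 of 30 cases, 14 without overlap (background 17.4%) and 6 at an unadjusted p under 0.05 (background 2.84%), with a median of 0.25. PCNA, the clamp that holds polymerase on DNA, had 48.5 and 42.5 FPKM with alcohol and 57.9 and 55.8 co-treated (0.32 ± 0.13), and RFC4, which loads it, 12.4 and 9.03 against 16.6 and 16.2 (0.59 ± 0.21). Without alcohol replicate 2 the replication median was 0.11 with 18 of 30 higher. Of 24 homologous recombination genes 18 were higher, 10 without overlap and 2 at an unadjusted p under 0.05, with a median of 0.16.

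Promoters of 3 mitosis genes are shown for the CHR (cell cycle genes homology region), TTTGAA or TTCGAA, and the CCAAT box, both on either strand and in capitals, elements through which mitotic genes are kept silent and switched on. They are again 250 bases before the first RefSeq start (GRCh38.p14): CDK1 on chr10:60778081-60778330 (plus), NUSAP1 on chr15:41332631-41332880 (plus) and BUB1 on chr2:110678064-110678313 (minus).
CDK1: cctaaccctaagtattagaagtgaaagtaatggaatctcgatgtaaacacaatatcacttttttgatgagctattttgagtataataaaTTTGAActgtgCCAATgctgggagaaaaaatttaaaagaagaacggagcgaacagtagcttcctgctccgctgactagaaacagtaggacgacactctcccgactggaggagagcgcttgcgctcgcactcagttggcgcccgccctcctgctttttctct
NUSAP1: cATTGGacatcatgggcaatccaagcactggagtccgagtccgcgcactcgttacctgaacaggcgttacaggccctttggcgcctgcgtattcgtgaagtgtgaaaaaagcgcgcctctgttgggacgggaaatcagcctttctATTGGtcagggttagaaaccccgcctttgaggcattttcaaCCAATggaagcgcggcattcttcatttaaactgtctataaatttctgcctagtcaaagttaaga
BUB1: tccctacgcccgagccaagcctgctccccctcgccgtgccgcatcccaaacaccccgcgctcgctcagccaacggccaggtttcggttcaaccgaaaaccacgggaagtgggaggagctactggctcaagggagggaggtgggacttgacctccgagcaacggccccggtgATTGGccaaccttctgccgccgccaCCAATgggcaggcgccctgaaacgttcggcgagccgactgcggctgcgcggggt
CDK1, a gene with 2 listed starts, held 1 match to the CHR and 1 to the CCAAT box. NUSAP1 held 3 CCAAT matches and BUB1 held 2. These matches, too, describe the letters and not the binding of a factor. The CHR stood in 14 of 24 mitosis windows (58.3%) against 9.96% of all windows, and the CCAAT box in 19 of 24 (79.2%) against 34.7%. Among replication genes the CCAAT box stood in 17 of 25 (68.0%) and the CHR in 2 (8.0%). The shares cover all list members with a window, whatever their difference between the treatments.

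Immediate early genes, which cells switch on within minutes of a stimulus, were mostly lower. Of 18 tested, 16 were lower, 9 with both co-treated libraries below both alcohol libraries (background 16.2%) and 6 at an unadjusted p under 0.05 (background 2.71%), with a median log2 fold change of -0.43 and none called. JUN, a subunit of the factor AP-1, had 81.3 and 107 FPKM with alcohol, 62.9 and 53.6 co-treated and 62.1 and 54.1 in control. The co-treated values lay at the control level (-0.70 ± 0.14, adjusted p = 0.423). In the same fit, JUN differed by 0.65 for alcohol against control (adjusted p = 0.113) and by -0.05 for co-treated against control (adjusted p = 0.93). JUN was named for its difference between co-treated and alcohol, and alcohol against control uses the same alcohol libraries. A return to the control level cannot be read from these values. JUN was called by DESeq2 and by edgeR without alcohol replicate 1, and its adjusted p ran from 0.0273 to 0.99 over 14 alternatives.

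ATF3, a stress-induced repressor, had the form of JUN, at 19.8 and 25.8 FPKM with alcohol, 10.5 and 15.2 co-treated and 14.2 and 12.7 in control (-0.83 ± 0.19, adjusted p = 0.471). The limit given for JUN holds for ATF3 too. IER3, which modulates survival signalling, had 52.2 and 40.9 FPKM with alcohol and 29.7 and 27.3 co-treated, and its controls, at 49.8 and 44.0, lay with alcohol (-0.72 ± 0.17, adjusted p = 0.471). KLF6, a zinc finger factor, was lower by 0.57 on the log2 scale (-0.57 ± 0.15) and JUND, another AP-1 subunit, by 0.55 (-0.55 ± 0.23), both without overlap. The list median was negative in all 4 pairs of libraries, from -0.16 to -0.56. Without alcohol replicate 1 it was -0.26, with 13 of 18 lower.

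Further genes among the 15 named falls were outside this list. RHOB, a small GTPase, had 35.5 and 42.9 FPKM with alcohol, 25.8 and 20.7 co-treated and 38.8 and 36.0 in control. The co-treated libraries were the lowest of the 6: against alcohol the difference was -0.76 ± 0.14 (adjusted p = 0.314), and against control RHOB fell by 0.74 on the log2 scale (-0.74, adjusted p = 0.045). GADD45G, a growth arrest gene, had 11.5 and 10.7 FPKM with alcohol and 4.40 and 4.47 co-treated (-1.33 ± 0.30, adjusted p = 0.471). DAPK3, a kinase that phosphorylates myosin light chain, had 55.1 and 49.2 against 37.3 and 25.9, and PCDH20, a protocadherin, 8.12 and 11.5 against 5.76 and 5.61. ZSCAN22, a zinc finger gene, stood on the higher side, at 1.87 and 2.40 against 4.42 and 3.91 FPKM (0.96 ± 0.23, adjusted p = 0.546).

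**Figure D4:**
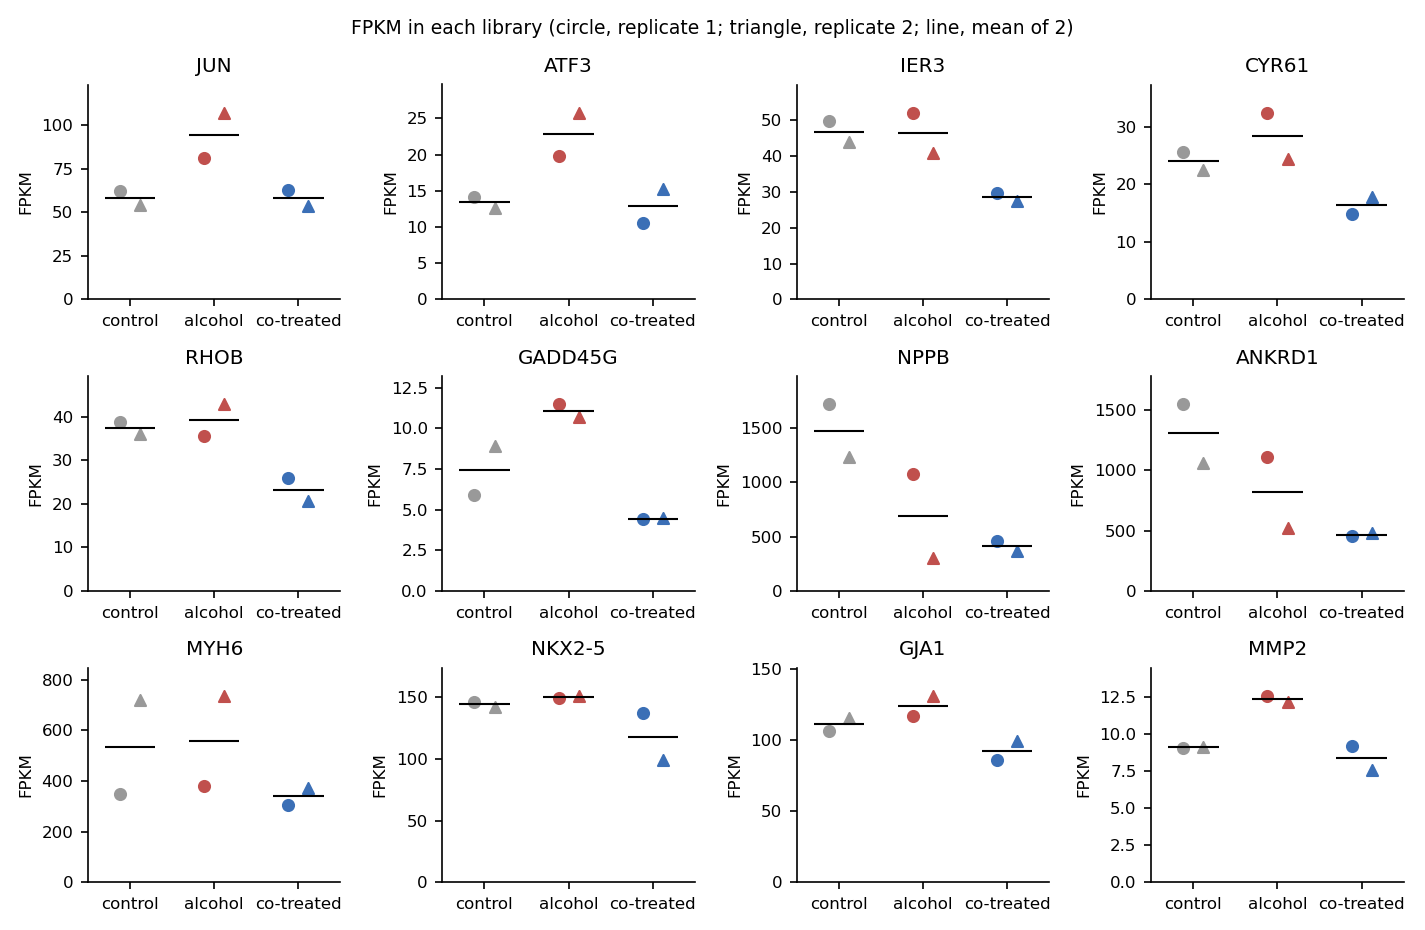
FPKM (vertical axes, linear from 0) of 12 genes with a lower mean in co-treated cells, in each library of the 3 treatments, with the mean of 2 as a line. The co-treated libraries lie below both alcohol libraries for every gene but NPPB, whose alcohol libraries stand at 1079 and 300.6 FPKM. Most of these genes, too, were picked for lack of overlap or for a small p.

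All 9 natriuretic and stretch-induced genes tested were lower, 4 without overlap (background 16.2%) and 2 at an unadjusted p under 0.05 (background 2.71%). Their median was -0.32, and 6 of 9 were lower without alcohol replicate 1. NPPB, the B-type natriuretic peptide, had 1079 and 300.6 FPKM with alcohol and 456 and 365 co-treated, so the co-treated values lay between the alcohol ones. ANKRD1, a stretch-induced titin-binding protein, had 1114 and 524 FPKM with alcohol and 454 and 480 co-treated, against 1551 and 1062 in control (-0.83 ± 0.28, adjusted p = 0.836). Both rested on alcohol replicate 1. Without alcohol replicate 2 edgeR called both lower, NPPB at adjusted p = 0.0142 and ANKRD1 at 0.0372, whereas without alcohol replicate 1 NPPB stood at 0.47 and ANKRD1 at -0.14. NPPA, the atrial peptide, had 2965 and 2363 FPKM with alcohol and 2375 and 2966 co-treated, a log2 fold change of -0.01 ± 0.18. XIRP1, an actin-binding protein of the intercalated disc, had 102 and 80.6 against 67.2 and 61.1 FPKM (-0.53 ± 0.15, adjusted p = 0.722).

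The contractile genes themselves differed little at the median. Of 31 sarcomere genes 25 were lower, 9 without overlap (background 16.2%) and 5 at an unadjusted p under 0.05 (background 2.71%). Their median was -0.08. The sign of the median followed the alcohol library, at -0.27 when its replicate 2 was left out and 0.13 when its replicate 1 was. TNNT2, cardiac troponin T, had 3497 and 3308 FPKM with alcohol and 3194 and 3496 co-treated. MYH7, the slow myosin heavy chain, had 3429 and 2474 against 3126 and 2749. MYH6, the fast one, had 381 and 737 FPKM with alcohol and 305 and 374 co-treated, against 349 and 717 in control, so the replicates of a treatment differed about as much as the treatments (-0.71 ± 0.29, adjusted p = 0.878). SYNPO2L, an actin-associated protein of the Z-disc, had 191 and 158 FPKM with alcohol and 131 and 119 co-treated (-0.49 ± 0.14, adjusted p = 0.722).

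Of 24 cardiac transcription factors 17 were lower, 11 without overlap (background 16.2%) and 6 at an unadjusted p under 0.05 (background 2.71%), with a median of -0.10, and 1 was higher at that p. Without co-treated replicate 2 none had such a p. IRX4, a ventricular homeobox gene, had 34.6 and 46.5 FPKM with alcohol and 32.7 and 22.4 co-treated (-0.58 ± 0.17, adjusted p = 0.76). NKX2-5, an early cardiac homeobox gene, had 149 and 151 against 137 and 98.8, and HAND2 104 and 118 against 97.5 and 80.7. TBX18, of the sinoatrial node and epicardium, was the 1 with such a p among the 7 that were higher, at 9.98 and 9.92 against 12.3 and 15.0 FPKM. Of 21 ion channel and gap junction genes 15 were lower, 8 without overlap (background 16.2%). GJA1, connexin 43 of the gap junctions, had 117 and 131 FPKM with alcohol and 85.9 and 99.1 co-treated (-0.43 ± 0.12, adjusted p = 0.722), and HCN4, the pacemaker channel, 39.7 and 45.1 against 36.7 and 30.4 (-0.35 ± 0.13). KCNJ8, a potassium channel gated by ATP, went the other way, at 9.79 and 9.06 against 12.3 and 13.5. The low values for IRX4, NKX2-5 and HCN4 came mainly from co-treated replicate 2. Calcium handling genes had a median of -0.03.

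Of 22 collagens 19 were lower, 9 without overlap (background 16.2%) and 1 at an unadjusted p under 0.05 (background 2.71%, so a count near the background), with a median of -0.14, which was -0.07 without co-treated replicate 2. Of 31 matrix glycoproteins and proteases 25 were lower, 11 without overlap and 3 at an unadjusted p under 0.05, with a median of -0.12. MMP2, a gelatinase, had 12.6 and 12.2 FPKM with alcohol, 9.23 and 7.61 co-treated and 9.07 and 9.16 in control. Its co-treated values lay near or below control (-0.61 ± 0.16, adjusted p = 0.587), with the limit given for JUN. TFPI2, a protease inhibitor, was 1 of the 6 that were higher: 27.3 and 28.4 FPKM with alcohol, 38.3 and 36.1 co-treated and 15.1 and 11.4 in control, farther from control with losartan than without (0.41 ± 0.14, adjusted p = 0.836). Fibroblast markers had a median of 0.07.

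**Figure D5:**
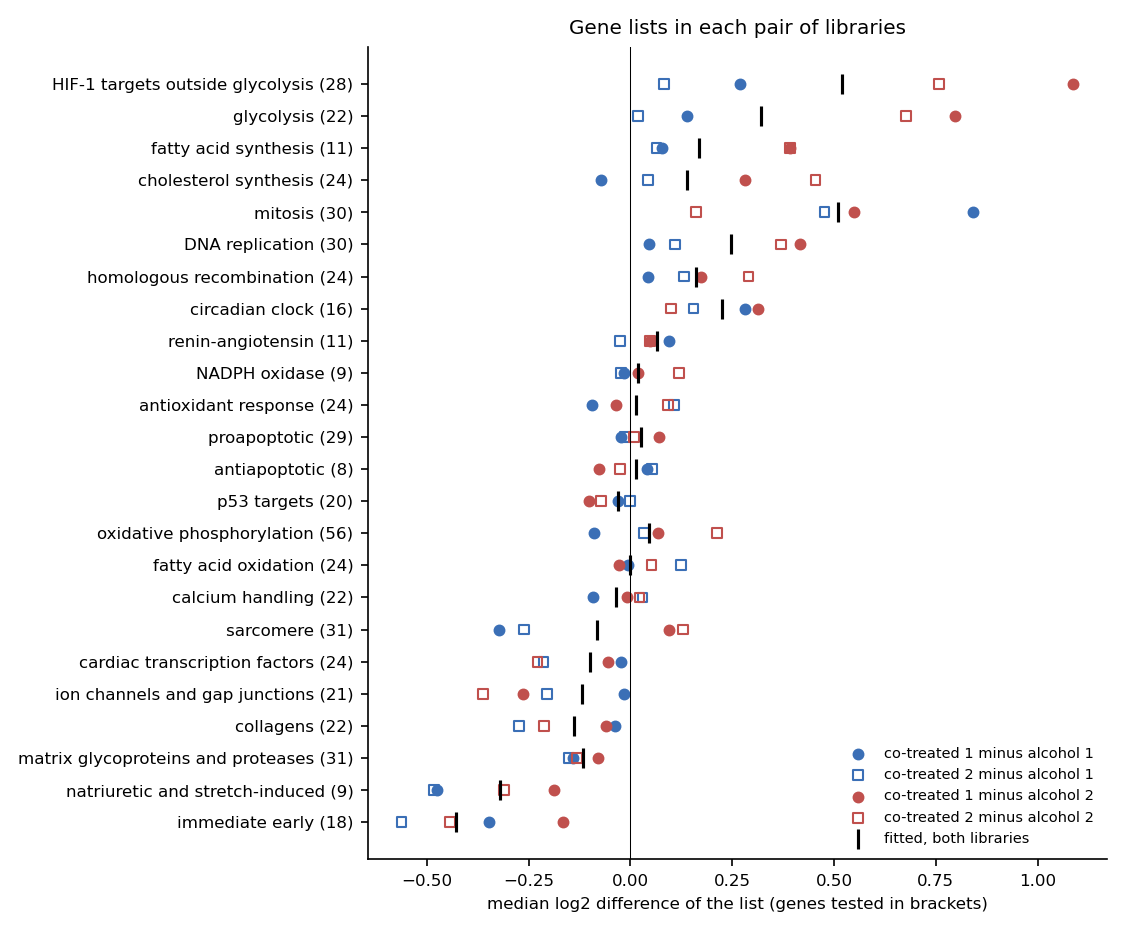
Median log2 difference (horizontal axis) of 24 gene lists in each of the 4 pairs of a co-treated and an alcohol library, with the fitted median as a bar and the number of genes tested in brackets. HIF-1 targets (0.08 to 1.09) and glycolysis separate by the alcohol library used (red, replicate 2). The sign is the same in all 4 pairs for these lists, for mitosis and immediate early genes and for several others.

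Oxidative phosphorylation (56 genes, median 0.04), fatty acid oxidation (24 genes, -0.001), heat shock and chaperone genes (21 genes, 0.04) and the unfolded protein response (21 genes, 0.01) held no gene at an unadjusted p under 0.05. Neither did the 8 genes of ethanol and acetaldehyde oxidation, although ALDH2, which clears acetaldehyde, had 30.3 and 41.4 FPKM with alcohol and 29.3 and 30.2 co-treated. Ribosomal protein genes were lower in 53 of 64 cases, 29 without overlap (background 16.2%), with a median of -0.08 (42 lower without alcohol replicate 2, 34 without co-treated replicate 1). Circadian clock genes were higher in 14 of 16 cases, 8 without overlap (background 17.4%), with a median of 0.22 and 1 gene at an unadjusted p under 0.05. The clock list shares BHLHE40, BHLHE41 and RORA with the HIF-1 list. The remaining lists had medians near 0: TGF-beta signalling -0.11 (25 genes), serine, proline and ATF4 stress -0.10 (22), adrenergic and muscarinic signalling -0.08 (16), proteasome -0.03 (30) and the interferon response -0.0022 (18). Of the markers of other cells, medians were 0.25 for pluripotent (9 genes tested) and endothelial cells (7), -0.07 for smooth muscle (8), -0.15 for neural (5) and -0.03 for endoderm (9), with 2 genes each tested for epicardium (0.08) and blood (0.08), and -0.03 for cardiomyocytes (16). No member of any of the 43 lists was called.

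The study sorted genes by fold and probability for alcohol against untreated cells. Those limits were applied here to co-treated against alcohol, as a log2 difference in mean FPKM past 1 and a probability past 0.8. Both were met by 107 of 20629 genes (0.519%), 65 higher and 42 lower. Of these, 94 were genes of short RNA such as microRNA and small nucleolar RNA, 87.9% against 1.97% of all genes measured. Their top count per gene among the 4 libraries was 2 at the median. Of the 107 genes, 74 had counts in 1 library alone and 93 had fewer than 10 counts in every library. Of the 13 others, 5 were read-through genes, and BNIP3 was the member of the hypoxia list that passed.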

How the data were processed

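RNA from H9-derived hiPSC-CMs was sequenced by the authors in 6 libraries, 2 per treatment. The authors deposited, per library, an expected count per gene, an estimate that need not be whole (33.9% were not), and the FPKM, that estimate scaled to gene length and library reads. The submitters' processing notes name HISAT2 2.0.4, Bowtie2 2.2.5, RSEM 1.2.12 and hg38, without saying which step each served. Genes absent from a library's table were set to 0.

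Expected counts were rounded and tested with edgeR 4.0.16 in R 4.3.3: TMM, filterByExpr, all 6 libraries in 1 quasi-likelihood fit, 14926 of 21134 genes, two-sided, Benjamini-Hochberg at 0.05. The study states no test of counts for this comparison. Levels in the text are FPKM or expected counts of single libraries, fold changes come from the fit, and each SE was derived from the fold and its quasi-likelihood F (size of the log2 fold over the root of F). A fold against a group at 0 was set against 3 counts per library. Limits of this kind cover counting error only. For the fold and probability limits of the study, FPKM of 0 became 0.001 and the probability was computed after NOISeq, which sets each gene's difference beside those between replicates.

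The comparison and the 43 gene lists were chosen with earlier results of these data known. The lists hold 963 entries, 17 of which were not listed. ERO1L was matched as ERO1A by its gene number. Named were the 15 highest and 15 lowest genes, called genes first and then by p among those without overlap, 15 fixed genes of the renin-angiotensin, oxidase, natriuretic, contractile and apoptosis pathways, and of each list up to 6 members with the smallest p and the 2 of highest mean FPKM. Some of these genes are not reported here. The read-through partners, gene copies and genes named for a call without 1 library were chosen after their values were seen. Lists were described by counts and medians, with no set test. Members of a list can move together from library to library, so their number is not a number of independent observations. Promoter windows came from RefSeq (GRCh38.p14).

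Alternatives were DESeq2 1.42.0, limma 3.58.1 on log2(FPKM + 1) and log2(FPKM + 0.1), RLE size factors, no filter, at least 10 counts in every library, only the 4 libraries compared, the replicate number as a block, each library left out and, chosen after seeing the data, read-through genes summed with their partners. The fit was also run on simulated counts, with results not reported here. These were drawn independently for each gene and library, so they hold no shift shared by many genes of a library. Same-numbered replicates did not deviate together: the correlation of replicate 1 minus replicate 2 was 0.041 between alcohol and co-treated, 0.114 between control and alcohol and -0.016 between control and co-treated, not over 0.1 in every case, so the numbers were not taken to pair libraries.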

Additional observations from a re-analysis of the deposited data

How the results depend on the processing

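The fit reported above called 2 genes. DESeq2 called 5 (3 higher, 2 lower), limma on log2(FPKM + 1) 1 (0 higher), no filter 1 (0 higher), only the 4 libraries compared 4 (3 higher), and at least 10 counts in every library 0 (0 higher, 0 lower), a filter that removes both called genes because each has libraries at 0. With read-through genes summed, added after seeing the data, 0 were called (0 higher, 0 lower). The replicate block gave 5 (4 higher), with ERO1A, NDRG1 and PLA2G4B added, although same-numbered replicates did not deviate together (correlations of -0.016 to 0.114 between groups). Leaving out 1 library gave 1 to 24 calls, 0 to 22 higher and 1 to 4 lower: 24 when alcohol replicate 1 was left out, 5 for alcohol replicate 2, 5 for co-treated replicate 1 and 1 for co-treated replicate 2. JMJD7-PLA2G4B was called in 13 of 13 alternatives that tested it and HSPE1-MOB4 in 10 of 13, with adjusted p from 6.33e-05 to 0.446. Genes at an unadjusted p under 0.05 numbered 829, 351 by DESeq2 and 702 to 1256 with 1 library left out. Those past the study's limits numbered 107, 29 at a probability over 0.9, 8 on CPM, 14 without short RNA genes and 140 to 170 with 1 library left out.

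Signs changed for genes near 0 and for NPPB, at -0.78 as reported above. On log2(FPKM + 1) and log2(FPKM + 0.1) NOX4 stood at 0.019 and 0.067, NPPA at 0.0037 in both, MYH7 at 0.0091 in both, and ACE at -0.025 in the latter. Under the replicate block NOX4 stood at 0.0045 and MYH7 at 0.0039. With 1 library left out, ACE ran from -0.58 to 0.51, NOX4 from -0.53 to 0.71, NPPA from -0.20 to 0.20, NPPB from -1.44 to 0.47, MYH7 from -0.27 to 0.27, TNNT2 from -0.11 to 0.0443 and BCL2 from -0.44 to 0.0364. The cause was not tested. List medians moved by more than the spread between libraries in 19 lists when alcohol replicate 1 was left out, 9 for alcohol replicate 2, 10 for co-treated replicate 1 and 6 for co-treated replicate 2. With 1 library left out of a group of 2, the lone library is assumed to vary like the others. At these depths a gene at 0 could hold 3 counts, and AGTR1 could not be tested.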
